A study of Mus musculus with 8 samples.

Results

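Heat shock proteins and their DnaJ partners are the main protein-folding machinery of the cell, and their genes were followed here in the maps of an active histone mark. The set holds every protein-coding gene of the GENCODE mouse annotation (release M21, build GRCm38/mm10) whose symbol names a heat shock protein of the Hspa, Hspb, Hspd, Hspe, Hsph or Hsp90 families or a DnaJ protein of classes A, B or C. By this rule on symbols alone, 72 of 21951 protein-coding genes belonged to the set. They comprised 13 Hspa genes, 1 Hsph gene, 3 Hsp90 genes, the chaperonin genes Hspd1 and Hspe1, 8 Hspb genes, 4 Dnaja genes, 13 Dnajb genes and 28 Dnajc genes.

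The mark was H3K27ac, the acetylation of histone H3 at lysine 27, which sits on active promoters and enhancers, and ChIP-seq maps of it were made in Oli-neu cells. Oli-neu is a mouse line of oligodendrocyte precursors (OPCs), given in the labels as derived from embryonic C57BL/6 OPCs, and it is immortalized with an activated neu tyrosine kinase, so both states come from the same transformed line. Proliferating cells were kept in medium with T3 (340 ng/ml), L-thyroxine (400 ng/ml), bFGF (10 ng/ml) and PDGF-BB (1 ng/ml). Differentiating cells were held for 1 day in medium lacking growth factors to which 1 µM of the erb inhibitor PD174265 was added. The same hormone and growth factor amounts are listed for both libraries, although the differentiation medium is described as lacking growth factors. The methods of the study give a longer period of differentiation for this line than the labels do. Each state had 1 library, and without replicates the states could be compared by description only, with no test. The 6 ATAC-seq samples (3 with control siRNA and 3 with siRNA against Padi2) were not analysed here.

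HSP70 proteins bind exposed hydrophobic stretches of unfolded proteins and release them as they hydrolyze and exchange ATP. J-proteins, named after DnaJ, deliver the clients and stimulate the ATPase, and HSP110 proteins exchange the nucleotide. HSP90 acts later on selected clients such as kinases and steroid receptors, the HSP60 and HSP10 chaperonin folds proteins inside the mitochondrion, and small heat shock proteins hold unfolding proteins without using ATP. Some of these genes are expressed in every cell, others are induced by heat shock factor on stress in the cytosol, and others by the unfolded protein response of the endoplasmic reticulum (ER). Oligodendrocytes make large amounts of membrane and secretory pathway protein as they form myelin.

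The authors deposited 1 list of broad peaks per library. The proliferating list held 28924 peaks over 22.0 Mb and the differentiating list 27965 peaks over 23.5 Mb. Each peak carries a fold enrichment, the ratio of ChIP signal over the background of the peak caller, and its −log10 q, a significance value that grows with the strength of the peak. The lists give no reads per peak, and the depth at a peak is unknown. Of 12 genes of the oligodendrocyte lineage, Sox10, Olig1 and Olig2 had a promoter peak in both lists, and the other 9 had none in either. A promoter peak in either list was present for 2 of 5 astrocyte genes, 1 of 5 neuronal genes and 0 of 5 microglial genes. Both libraries are of the Oli-neu line, and whether any other cells were present was not tested. Chromosomes 1, 10 and 15 carried the most peaks per Mb. There 48.5% of all protein-coding genes had a peak in their promoter region in at least 1 list, and elsewhere 31.5% did. Among chaperone genes these were 6 of 11 and 38 of 61 (62.3%).

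A gene was called marked when a peak shared at least 1 base with its promoter region, which spans 3000 bp before and 100 bp after the transcription start site (TSS). In proliferating cells 35 of the 72 chaperone genes were marked (48.6%, 95% exact binomial interval 36.7 to 60.7), compared with 23.7% of all protein-coding genes. In differentiating cells 36 were marked (50.0%, interval 38.0 to 62.0), compared with 27.7%. Either list marked 44 genes (61.1%, interval 48.9 to 72.4; all genes 33.8%) and both lists marked 27 (37.5%, interval 26.4 to 49.7; all genes 17.6%). In each of these 4 counts the share of all genes lay below the interval of the chaperone genes. The intervals cover counting error only, and genes that share a promoter are not independent.

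**Figure D1:**
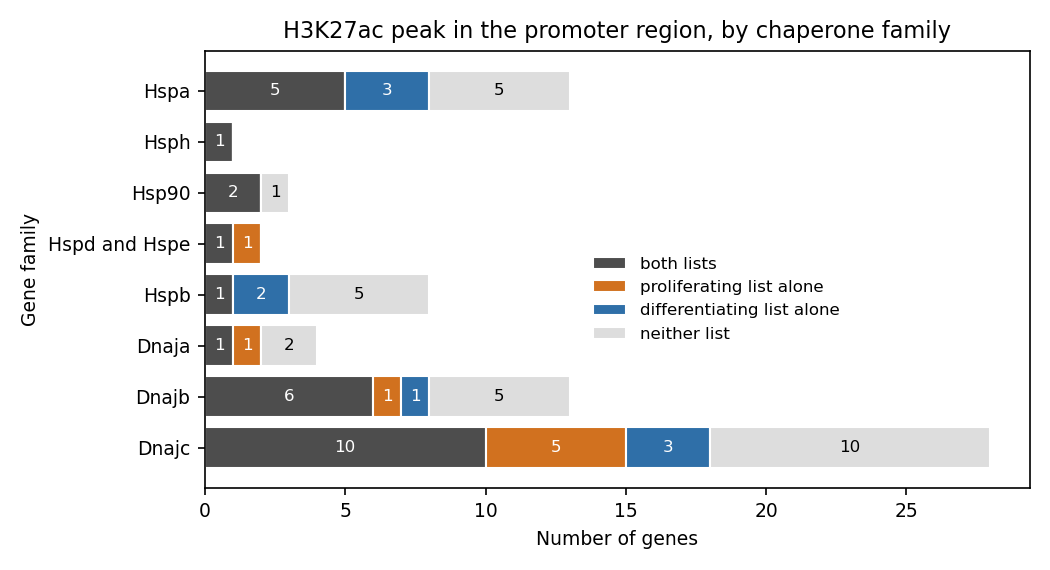
Number of chaperone genes (x axis) in each family (y axis) whose promoter region held an H3K27ac peak in both lists (dark gray), in the proliferating list alone (orange), in the differentiating list alone (blue) or in neither (light gray), with 1 library per state. Peaks in both lists were found for 5 of 13 Hspa genes, 6 of 13 Dnajb genes and 10 of 28 Dnajc genes, while 5 of 8 Hspb genes had none.

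The genes marked in 1 list alone were fewer. In the proliferating list alone there were 8 (11.1%, interval 4.92 to 20.7; all genes 6.13%), namely Dnaja2, Dnajb8, Dnajc5g, Dnajc8, Dnajc9, Dnajc24, Dnajc28 and Hspd1. In the differentiating list alone there were 9 (12.5%, interval 5.88 to 22.4; all genes 10.1%), namely Dnajb1, Dnajc4, Dnajc13, Dnajc19, Hspa12a, Hspa12b, Hspa13, Hspb2 and Hspb9. Both shares of all genes lay within the intervals. The peaks of these 17 genes had a median −log10 q of 1.93 (range 1.34 to 4.75), whereas the 54 values of the genes marked in both lists had a median of 2.94 (range 1.26 to 12.1). For 3 of the 17 (Hspd1, Dnajb1 and Hspa12a) the other list did hold a peak within 1000 bp of the TSS, just outside the promoter region. Of the 35 chaperone genes marked in proliferating cells, 77.1% were also marked in differentiating cells (all genes 74.2%), and of the 36 marked in differentiating cells 75.0% were also marked in proliferating cells (all genes 63.5%).

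The peaks of chaperone genes lay around the TSS. At a single position 200 bp downstream of the TSS, 29 of 72 genes (40.3%) were covered by a proliferating peak, compared with 19.1% of all genes. In differentiating cells 24 chaperone genes (33.3%) were covered both at the TSS (all genes 20.4%) and at 100 bp downstream (all genes 22.3%), and 31.9% were covered at 200 bp downstream (all genes 23.2%). Further upstream, at −1000 bp, 9.72% of chaperone genes were covered in proliferating cells (all genes 2.67%) and 4.17% in differentiating cells (all genes 3.04%).

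**Figure D2:**
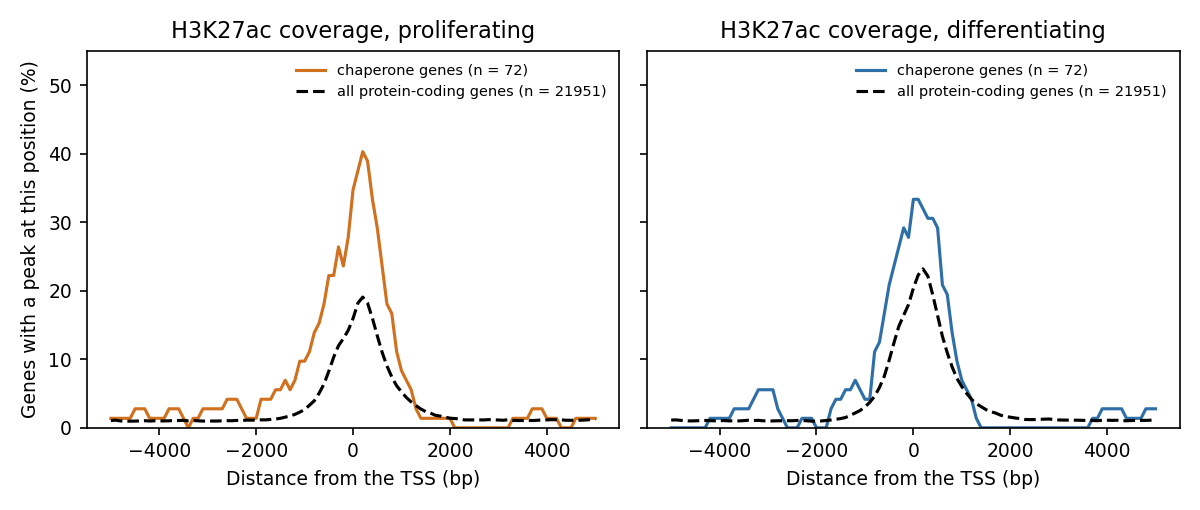
Percentage of genes with an H3K27ac peak (y axis) at each distance from the TSS in bp (x axis, negative upstream), for the 72 chaperone genes (colored lines) and all 21951 protein-coding genes (dashed black lines), in proliferating cells on the left and differentiating cells on the right. The chaperone line rose to 40.3% in proliferating and 33.3% in differentiating cells and came close to the line of all genes beyond 2000 bp downstream.

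Once present, the peaks were about as strong as those of other promoters. In proliferating cells the 34 peaks in chaperone promoter regions had a median fold enrichment of 3.58 and a median −log10 q of 2.71, compared with 3.61 and 2.69 for the 4562 peaks in the promoter regions of all genes. In differentiating cells the 37 peaks had medians of 3.36 and 2.67, compared with 3.42 and 2.76 for 5326 peaks. Median widths were 1080 bp against 861 bp in proliferating cells and 831 bp against 910 bp in differentiating cells. Peaks of a −log10 q of 5 or more marked 6 chaperone genes in proliferating cells (8.33%; all genes 3.27%), 8 in differentiating cells (11.1%; all genes 4.25%) and 9 in either (12.5%, interval 5.88 to 22.4; all genes 5.81%), namely Hspa2, Hspa8, Hspa9, Hspe1, Dnaja1, Dnajb5, Dnajb12, Dnajc1 and Dnajc14.

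**Figure D3:**
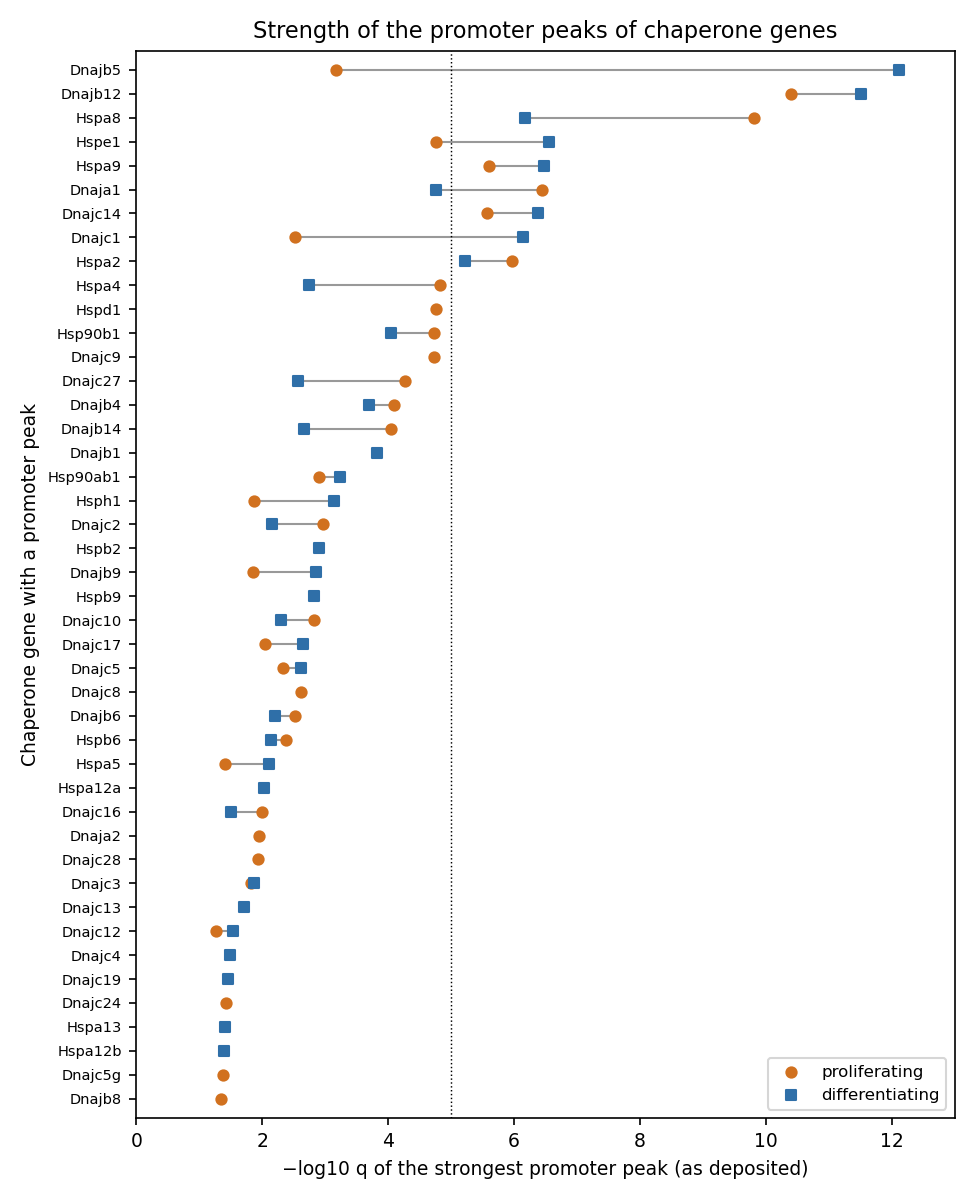
Strength of the strongest promoter peak, as −log10 q in the deposited lists (x axis), for the 44 chaperone genes with a promoter peak (y axis), in proliferating (orange circles) and differentiating cells (blue squares), with a gray line joining the states of 1 gene and a dotted line at 5. Dnajb12 was above 10 in both states, Dnajb5 ran from 3.17 to 12.1, and most genes lay below 5 in both.

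Promoters of the set were often rich in CpG dinucleotides. Within 500 bp of the TSS in both directions, the ratio of observed to expected CpG had a median of 0.742 for chaperone genes and 0.552 for the 21938 genes on chromosomes 1 to 19, X and Y. It was at least 0.6 for 48 of 72 chaperone genes (66.7%; all genes 46.0%). The 300 bp upstream of Hspa8 and of Dnajc25 are shown for this contrast, on GRCm38 and in the direction of transcription, with CpG in capitals. Hspa8, on chr9:40800684-40800983 (plus strand), held 26 CpG and lay wholly under a peak in both lists, and Dnajc25, on chr4:58994762-58995061 (plus strand), held 2 CpG with its nearest peaks 40091 and 40027 bp away.
Hspa8: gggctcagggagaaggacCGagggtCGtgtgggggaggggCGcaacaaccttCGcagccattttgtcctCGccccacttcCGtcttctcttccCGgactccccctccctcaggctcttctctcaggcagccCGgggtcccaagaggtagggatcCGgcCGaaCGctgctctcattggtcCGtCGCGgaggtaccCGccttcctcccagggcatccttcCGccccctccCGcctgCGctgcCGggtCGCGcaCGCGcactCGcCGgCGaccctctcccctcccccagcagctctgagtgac
Dnajc25: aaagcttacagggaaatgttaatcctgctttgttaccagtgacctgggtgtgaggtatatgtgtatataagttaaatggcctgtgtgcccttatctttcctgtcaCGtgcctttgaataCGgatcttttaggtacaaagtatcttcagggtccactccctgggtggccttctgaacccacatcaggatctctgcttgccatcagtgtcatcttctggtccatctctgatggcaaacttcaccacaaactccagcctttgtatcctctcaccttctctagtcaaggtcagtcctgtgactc
Dnajc25 encodes a J-protein of membranes.

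CpG-rich chaperone genes carried more peaks than CpG-poor ones, as all genes did. Among the 48 CpG-rich chaperone genes, 30 were marked in proliferating cells (62.5%, interval 47.4 to 76.0; all CpG-rich genes 41.8%) and 30 in differentiating cells (62.5%, interval 47.4 to 76.0; all CpG-rich genes 49.6%). The background lay below the interval in proliferating cells and inside it in differentiating cells. Either list marked 35 of the 48 (72.9%, interval 58.2 to 84.7; all CpG-rich genes 58.2%), and both lists marked 25 (52.1%, interval 37.2 to 66.7; all CpG-rich genes 33.2%). Of the 24 CpG-poor chaperone genes, 5 were marked in proliferating cells (20.8%, interval 7.13 to 42.2; all CpG-poor genes 8.34%), 6 in differentiating cells (25.0%, interval 9.77 to 46.7; all CpG-poor genes 9.06%) and 9 in either (37.5%, interval 18.8 to 59.4; all CpG-poor genes 13.1%). Only Dnajc12 and Dnajc14 among the CpG-poor chaperone genes were marked in both lists (8.33%; all CpG-poor genes 4.29%).

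**Figure D4:**
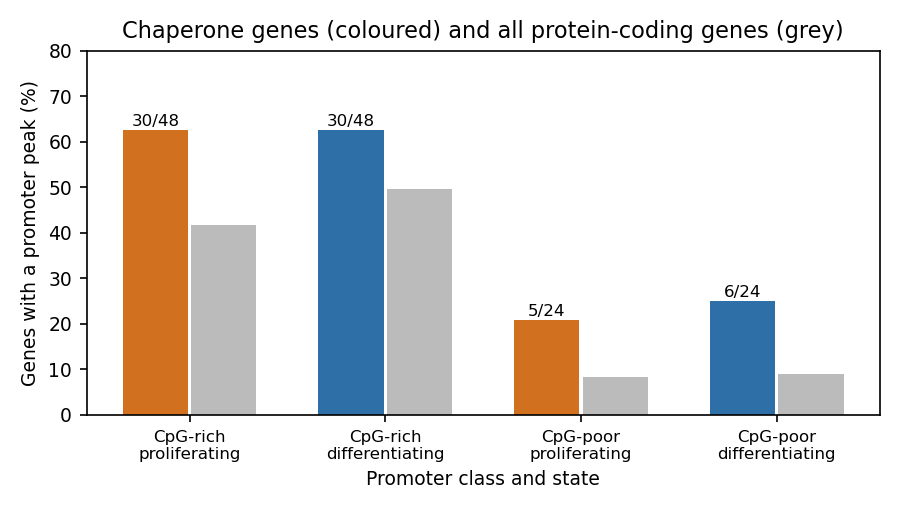
Percentage of genes with a promoter peak (y axis) in CpG-rich and CpG-poor promoter classes in each state (x axis), for chaperone genes (orange in proliferating, blue in differentiating cells, counts above the bars) and all genes of the class (gray). CpG-rich chaperone genes stood at 62.5% in both states and CpG-poor ones at 20.8% and 25.0%.

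Of the 13 HSP70 genes, 8 were marked in either list (61.5%, interval 31.6 to 86.1; all genes 33.8%), and 5 of them in both (Hspa2, Hspa4, Hspa5, Hspa8 and Hspa9). Hspa8, which encodes the constitutive HSC70 (chr9:40800984-40810087, plus strand), had a proliferating peak from −943 to 803 bp around its TSS with a fold enrichment of 5.29 and a −log10 q of 9.80. Its differentiating peak ran from −888 to 524 bp with a fold enrichment of 4.23 and a −log10 q of 6.18. These values placed Hspa8 at percentile 99.2 of all proliferating peaks and 96.7 of all differentiating peaks by −log10 q. Hspa9, which encodes mortalin, the HSP70 of the mitochondrial matrix, had a fold enrichment of 4.09 and a −log10 q of 5.61 in proliferating cells, and 4.56 and 6.47 in differentiating cells. Hspa2, known for its role in spermatocytes, had peaks of similar strength, with a fold enrichment of 4.85 and a −log10 q of 5.97 in proliferating cells and 4.70 and 5.22 in differentiating cells. All 3 genes therefore passed a −log10 q of 5 in both lists.

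Hspa4, an HSP110-class exchange factor, had a −log10 q of 4.83 in proliferating and 2.74 in differentiating cells, with fold enrichments of 4.22 and 3.28. Hsph1, the HSP110 gene proper (chr5:149614287-149636376, minus strand), showed the other order, with a −log10 q of 1.86 and 3.14 and fold enrichments of 3.18 and 3.50. Of the remaining HSP70 relatives, Hspa12a, Hspa12b and Hspa13 were marked in differentiating cells alone, at a −log10 q of 2.03, 1.39 and 1.41. Hspa12a had a proliferating peak too, but it began just downstream of the promoter region. Hspa14, a ribosome-associated relative, had a proliferating peak 269 bp from its TSS, and Hspa4l, a testis form, had a differentiating peak 443 bp from it, both inside the gene.

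The inducible genes Hspa1a and Hspa1b, whose products accumulate in heat-shocked cells, had no promoter peak in either list, and neither did their neighbor Hspa1l, a testis gene. For Hspa1b (TSS at position 34959238 of chromosome 17, minus strand) the nearest peak lay 6359 bp away in proliferating and 6250 bp in differentiating cells. For Hspa1a (TSS at 34972156, minus strand) these distances were 9385 and 9731 bp. Parts of the copies are identical, and the authors kept uniquely mapped reads. Over the whole gene of Hspa1a, 58.8% of words of 50 bases also occurred in Hspa1b. Of the words of 50 bases within 1000 bp of the TSS of Hspa1a, 50.1% also occurred around Hspa1b, whereas in the whole promoter region 5.83% did. The part of lost reads in the absence of peaks was not tested.

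The 300 bp upstream of Hspa1a (chr17:34972157-34972456, minus strand) are shown with a pair of heat shock element units in capitals, because the gene is a classical target of heat shock factor. The units were searched as GAANNTTC, which reads the same on both strands and which 7.87% of all 21938 upstream windows of this length held. The match lay from −104 to −97 bp. Hspb1, which encodes the small heat shock protein HSP27 (chr5:135887619-135887918, plus strand), had matches at −117 to −110 and −97 to −90 bp.
Hspa1a: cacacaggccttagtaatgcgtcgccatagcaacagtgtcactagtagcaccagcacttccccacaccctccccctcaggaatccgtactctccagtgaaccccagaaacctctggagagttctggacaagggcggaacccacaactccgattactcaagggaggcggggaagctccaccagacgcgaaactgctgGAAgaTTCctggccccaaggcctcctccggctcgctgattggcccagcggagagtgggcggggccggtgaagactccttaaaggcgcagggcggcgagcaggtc
Hspb1: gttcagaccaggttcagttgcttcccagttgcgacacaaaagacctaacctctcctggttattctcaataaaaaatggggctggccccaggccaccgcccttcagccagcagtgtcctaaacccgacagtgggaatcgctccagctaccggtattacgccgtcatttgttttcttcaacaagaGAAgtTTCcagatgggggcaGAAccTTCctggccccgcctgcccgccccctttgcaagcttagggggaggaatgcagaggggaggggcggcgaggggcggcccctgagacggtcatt
Neither window was under a peak. The Hspa1b window was identical to that of Hspa1a at 282 of 300 positions (94.0%) and held the same match at the same distance.

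The GAANNTTC pair was found upstream of 10 of 72 chaperone genes (13.9%), of which 4 were marked (Hspa9, Hspe1, Dnajc12 and Dnajc27) and 6 were not (Hspa1a, Hspa1b, Hspb1, Hspb3, Dnajc5b and Dnajc18). The opposite arrangement, TTCNNGAA, was found upstream of 4 genes (5.56%; all genes 8.19%), namely Hspe1, Dnajc10, Dnajc30 and Dnajc15. The element of 3 units, GAANNTTCNNGAA on either strand, was found in 0.520% of all windows and upstream of Hspe1 alone among the chaperone genes. A match describes the letters only, and its absence says only that these letters were not in the window.

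The chaperonin genes Hspd1 and Hspe1 start back to back on chromosome 1, Hspe1 at 55088132 on the plus strand and Hspd1 at 55088243 on the minus strand. A single proliferating peak covered both starts, from −868 to 464 bp around the TSS of Hspe1, with a fold enrichment of 4.18 and a −log10 q of 4.75. The differentiating peak was narrower, from −702 to −119 bp, with a fold enrichment of 4.68 and a −log10 q of 6.56. It covered neither start, and measured from Hspd1 it lay inside the gene, from 230 to 813 bp, which is why Hspd1 counted as marked in proliferating cells alone. The joined heat shock element of Hspe1 is shown because it was the only 3-unit match of the set. It consists of 4 units, in capitals, on chr1:55088059-55088076 (plus strand), from −73 to −56 bp.
Hspe1 element: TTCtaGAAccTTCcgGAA
The element lies inside the annotated Hspd1 gene, beginning 167 bp from its TSS. It was under the proliferating peak and not under the differentiating peak.

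The HSP90 genes differed by their annotated starts. Hsp90ab1, the constitutive cytosolic HSP90 (chr17:45567775-45573271, minus strand), had a fold enrichment of 3.32 and a −log10 q of 2.91 in proliferating cells and of 3.18 and 3.24 in differentiating cells, with peaks 1813 and 1752 bp wide over the TSS. Hsp90aa1, the inducible cytosolic form, was unmarked at the gene-level TSS, which belongs to 1 transcript, but the other coding transcripts started 6333 to 6777 bp further downstream. A proliferating peak (fold enrichment 4.49, −log10 q 4.37) and a differentiating peak (2.91 and 1.69) lay at those starts. With the TSS of every transcript, Hsp90aa1 was therefore marked in both lists, and 5 other unmarked genes became marked in at least 1 list (Dnajb2, Hspa4l, Hspb11, Dnajc7 and Dnaja3). Hspd1, Dnajb1 and Hspa12a, each marked in 1 list at the gene-level TSS, were then marked in both.

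The genes listed by hand for the ER were marked almost throughout. Of the 10 genes listed for the ER, 8 had a promoter peak in proliferating cells (all genes 23.7%) and 9 had one in differentiating cells (all genes 27.7%). In either list 9 were marked (90.0%, interval 55.5 to 99.7; all genes 33.8%). The interval includes the 61.1% of the whole set. In proliferating cells Dnajb14 and Hsp90b1 counted only through a peak nearer to another gene. Dnajb11, which encodes ERdj3, had its nearest peaks 249544 bp (proliferating) and 193761 bp (differentiating) away, and Hspa13 was marked in differentiating cells alone. Hspa5, which encodes BiP, the ER form of HSP70 and a sensor of ER stress (chr2:34771970-34777547, plus strand), had weak peaks, with a fold enrichment of 2.95 and a −log10 q of 1.40 in proliferating cells and 3.17 and 2.11 in differentiating cells. They stood at percentiles 7.51 and 59.9 of their lists. The gap of 52.4 percentile points was the largest among the 27 genes marked in both lists.

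Hsp90b1, which encodes GRP94, the ER form of HSP90 (chr10:86690209-86705509, minus strand), had a fold enrichment of 4.18 and a −log10 q of 4.73 in proliferating cells and of 3.71 and 4.04 in differentiating cells. Its peak ran from −888 to −223 bp in the first list and from −1489 to 192 bp in the second. Dnajc3, which encodes p58IPK, a J-protein that assists BiP (chr14:118937976-118981697, plus strand), had a −log10 q of 1.82 and 1.87, with fold enrichments of 3.36 and 3.24. The 300 bp upstream of these genes and of Hspa5 are shown because they belong to the classical targets of the unfolded protein response. Capitals mark the ER stress element in Hsp90b1 and Dnajc3, searched on both strands as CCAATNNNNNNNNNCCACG, and CCAAT boxes on both strands in Hspa5. The windows were chr10:86705510-86705809 (minus strand), chr14:118937676-118937975 (plus strand) and chr2:34771670-34771969 (plus strand).
Hsp90b1: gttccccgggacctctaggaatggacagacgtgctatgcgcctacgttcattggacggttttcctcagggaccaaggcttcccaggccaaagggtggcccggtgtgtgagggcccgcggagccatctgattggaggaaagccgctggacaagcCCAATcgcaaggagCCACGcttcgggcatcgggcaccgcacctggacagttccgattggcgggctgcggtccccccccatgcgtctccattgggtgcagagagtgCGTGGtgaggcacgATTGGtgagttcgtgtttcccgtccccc
Dnajc3: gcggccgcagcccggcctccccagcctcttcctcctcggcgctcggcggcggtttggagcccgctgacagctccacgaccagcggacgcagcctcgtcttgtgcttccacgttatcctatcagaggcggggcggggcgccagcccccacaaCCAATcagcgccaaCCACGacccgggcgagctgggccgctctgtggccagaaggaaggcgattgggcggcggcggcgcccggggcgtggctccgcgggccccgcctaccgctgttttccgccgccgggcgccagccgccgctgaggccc
Hspa5: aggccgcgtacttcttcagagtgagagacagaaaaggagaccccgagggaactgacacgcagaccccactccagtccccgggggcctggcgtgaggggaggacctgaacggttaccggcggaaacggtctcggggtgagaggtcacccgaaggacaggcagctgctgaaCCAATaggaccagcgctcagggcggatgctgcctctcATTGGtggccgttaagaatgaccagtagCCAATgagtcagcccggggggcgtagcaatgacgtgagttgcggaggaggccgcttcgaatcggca
The full ER stress element occurred upstream of 24 of 21938 genes (0.109%), and Hsp90b1 and Dnajc3 were the 2 chaperone genes among them. Hsp90b1 held it at −147 to −129 bp and, on the other strand, at −42 to −24 bp, and Dnajc3 at −149 to −131 bp. Hspa5 held no exact match in this window but 3 CCAAT boxes, at −131, −94 and −66 bp. CCAAT alone was found upstream of 33 chaperone genes (45.8%; all genes 39.8%), and the GC box GGGCGG of 40 (55.6%; all genes 40.4%). TATAAA was found upstream of 7 (9.72%; all genes 13.7%).

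Among the ER J-proteins, Dnajb12, a membrane protein that acts in ER-associated degradation, was the strongest. Its −log10 q was 10.4 in proliferating and 11.5 in differentiating cells, with fold enrichments of 5.11 and 5.09, from −26 to 788 bp and from −62 to 709 bp. Both values were at percentile 99.2 of their lists. Dnajc1, which encodes ERdj1 at the ribosome, had a −log10 q of 2.52 and 6.14 with fold enrichments of 3.77 and 4.69. Dnajb9, which encodes ERdj4, had a −log10 q of 1.85 and 2.86 with fold enrichments of 3.42 and 3.69. Both were higher in the differentiating list by either value, with 1 library per state. Dnajc10, which encodes the reductase ERdj5, had a −log10 q of 2.81 and 2.30 with fold enrichments of 3.66 and 3.12. Dnajb14, a relative of Dnajb12, had a proliferating peak upstream, from −3331 to −2202 bp (fold enrichment 4.09, −log10 q 4.04), which covered the TSS of its neighbor H2afz. Its strongest differentiating peak covered the TSS instead, from −181 to 866 bp (3.26 and 2.67), while a further differentiating peak, from −3791 to −2850 bp, overlapped the upstream peak and covered the H2afz TSS as well.

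**Figure D5:**
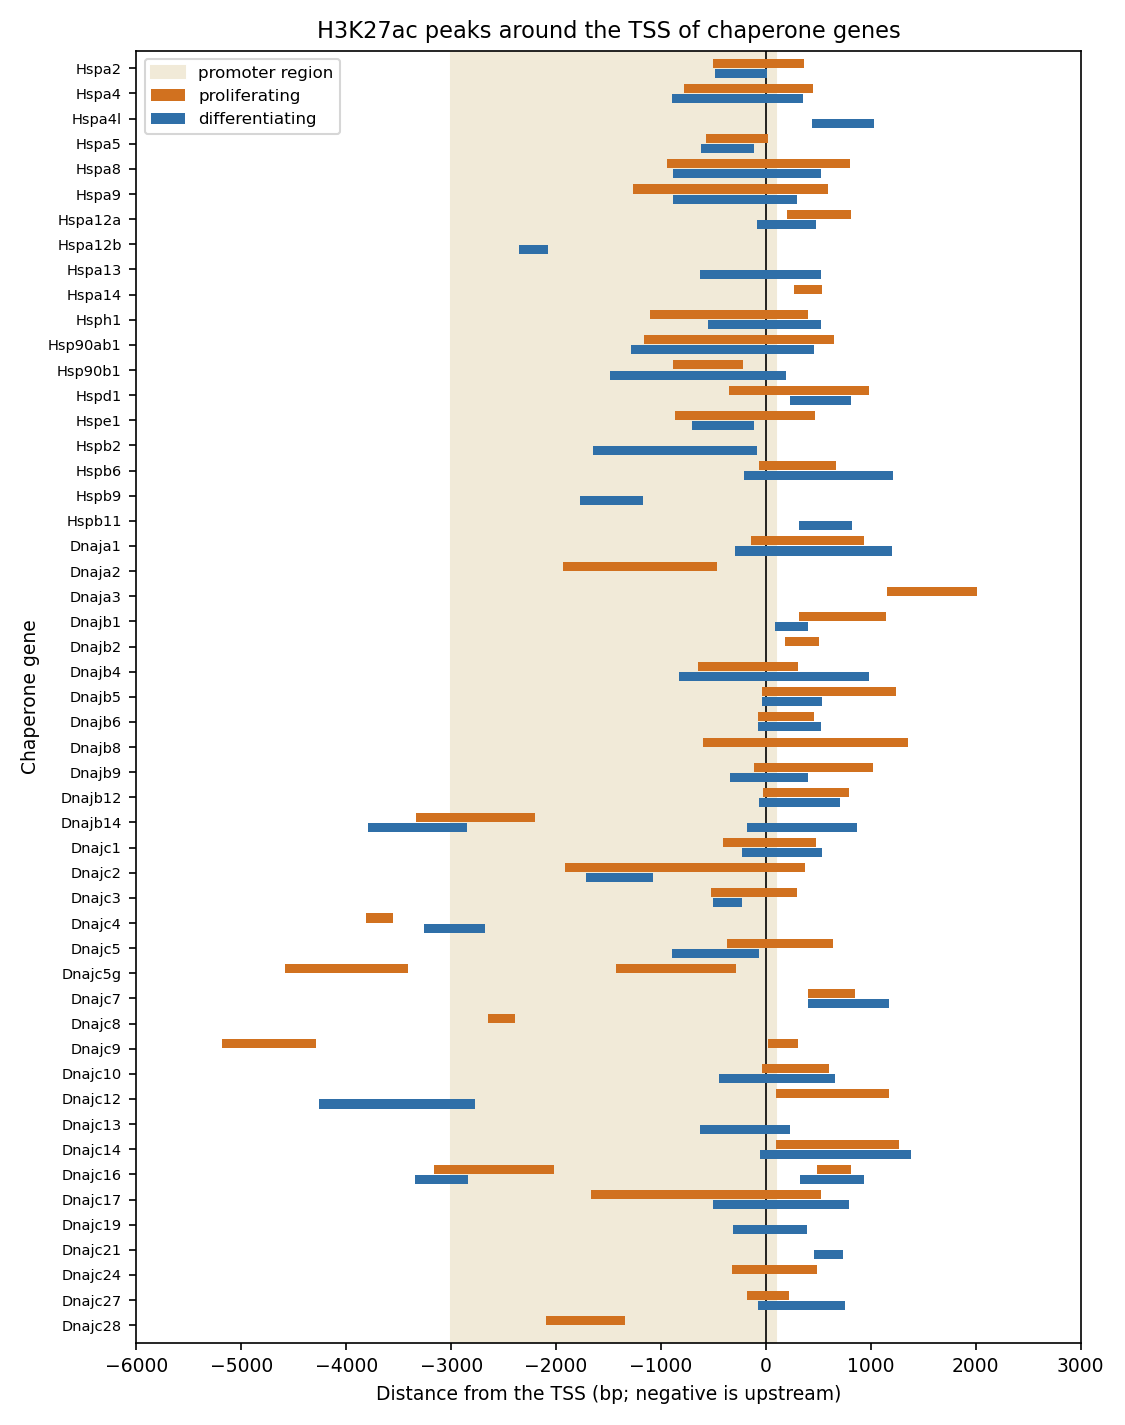
Position of H3K27ac peaks relative to the TSS in bp (x axis, negative upstream) for each chaperone gene with a peak from 6000 bp upstream to 3000 bp downstream (y axis), in proliferating (orange) and differentiating cells (blue), with the promoter region shaded. Most peaks cover the TSS, whereas those of Dnajc8, Dnajc28, Hspa12b and Hspb9 lie upstream and those of Dnajc7 and Dnajb2 lie downstream of the promoter region.

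The cytosolic J-proteins of classes A and B were marked in part. Dnaja1, a main J-protein of HSC70 (chr4:40722150-40737149, plus strand), had a −log10 q of 6.45 in proliferating and 4.76 in differentiating cells, with fold enrichments of 4.54 and 3.68. Dnaja2, its close relative, was marked in proliferating cells alone, and Dnaja4 had its nearest peaks 856884 and 164961 bp away. Dnajb1, the stress-inducible HSP40 (chr8:83608193-83612653, plus strand), had a differentiating peak from 83 to 395 bp with a fold enrichment of 4.17 and a −log10 q of 3.83. Its proliferating peak began at 317 bp, downstream of the promoter region, with a fold enrichment of 3.09 and a −log10 q of 1.42. So both lists held a peak in the first part of Dnajb1, and the single-list call rested on where the peak began.

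Dnajb5 showed the largest gap in −log10 q of the set. Its proliferating peak from −42 to 1240 bp had a fold enrichment of 3.86 and a −log10 q of 3.17, and its differentiating peak from −35 to 534 bp had 6.02 and 12.1. Within their lists these peaks stood at percentiles 84.9 and 99.3, and the raw values of separate lists are not on a shared scale. Dnajb6, a suppressor of protein aggregation, had a fold enrichment of 3.12 and a −log10 q of 2.52 in proliferating and 2.95 and 2.20 in differentiating cells. Dnajb4 had a −log10 q of 4.10 and 3.69 with fold enrichments of 4.27 and 3.66. These 2 genes thus differed little between the lists. Dnajb8, a testis gene, was marked in proliferating cells alone, by a peak at percentile 5.10 of its list.

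Class C is the most diverse, and 18 of its 28 members were marked in either list (64.3%, interval 44.1 to 81.4; all genes 33.8%). Dnajc5, the cysteine string protein of secretory vesicles (chr2:181520485-181555133, plus strand), had a −log10 q of 2.33 in proliferating and 2.62 in differentiating cells, with fold enrichments of 3.33 and 3.48. Dnajc14 reached a −log10 q of 5.58 and 6.38 with fold enrichments of 3.98 and 3.76, by peaks that began at 92 bp and at −56 bp. Dnajc27, a Rab-like protein with a J domain, had a −log10 q of 4.27 and 2.57 with fold enrichments of 4.61 and 3.50. Dnajc2, the ribosome-associated zuotin, had a −log10 q of 2.96 and 2.16 with fold enrichments of 3.03 and 2.78. Both of the last named had higher values in the proliferating list. For Dnajc2 the peaks differed in place. The proliferating peak, from −1919 to 374 bp, covered its TSS, and the differentiating peak, from −1715 to −1076 bp, did not and was nearer to Psmc2.

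The other class C genes marked in both lists and not listed for the ER were Dnajc17, Dnajc16 and Dnajc12. Dnajc17, a splicing-associated protein, had a −log10 q of 2.04 in proliferating and 2.64 in differentiating cells, with fold enrichments of 3.41 and 3.36. For Dnajc16 the values were 1.99 and 1.50 with fold enrichments of 3.29 and 2.84, and the promoter peaks lay over 2000 bp upstream of its TSS in both lists, with further peaks downstream of the promoter region. Dnajc12 had 1.26 and 1.54 with fold enrichments of 2.86 and 2.97. Its proliferating peak began at 97 bp downstream and its differentiating peak ended at −2769 bp, so Dnajc12 was the 1 gene of the 27 whose peaks in the lists shared no base.

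Of the class C genes marked in 1 list, Dnajc9, a histone chaperone, had the strongest peak. It ran from 17 to 302 bp in proliferating cells with a fold enrichment of 4.83 and a −log10 q of 4.72, and no differentiating peak lay within 1000 bp of the TSS. Dnajc8, a splicing-associated protein, had its proliferating peak upstream, from −2652 to −2390 bp (3.85 and 2.61). Dnajc24, which acts in the synthesis of diphthamide, Dnajc28 and the testis gene Dnajc5g were marked in proliferating cells alone as well. Dnajc13, which acts on endosomes, Dnajc19 of the mitochondrial import motor and Dnajc4 were marked in differentiating cells alone, at a −log10 q of 1.71, 1.46 and 1.48.

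Of the 8 small heat shock protein genes, 3 were marked in either list (37.5%, interval 8.52 to 75.5; all genes 33.8%). Hspb6, known from muscle, was the only one with a peak in both lists, with a fold enrichment of 3.50 and a −log10 q of 2.38 in proliferating and 3.33 and 2.13 in differentiating cells. Hspb2, also a muscle gene, had a differentiating peak from −1644 to −82 bp (3.60 and 2.90), and Hspb9, a testis gene, had one from −1770 to −1172 bp (3.59 and 2.82). Hspb1 had no peak within 46177 bp in proliferating and 33415 bp in differentiating cells, and Hspb8, a partner of Bag3 in autophagy, none within 574035 and 386905 bp. The muscle genes Hspb3 and Hspb7 were unmarked, and Hspb11, an intraflagellar transport protein despite its symbol, had a differentiating peak 318 bp downstream of its TSS.

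By compartment, 17 of 28 genes of the cytosol and nucleus were marked in either list (60.7%, interval 40.6 to 78.5), 4 of 8 mitochondrial genes (50.0%, interval 15.7 to 84.3), 4 of 10 genes known from testis (interval 12.2 to 73.8%), 2 of 4 from muscle (50.0%, interval 6.76 to 93.2) and 8 of 12 others (66.7%, interval 34.9 to 90.1), compared with 33.8% of all genes. That share lay inside the intervals of the mitochondrial, testis and muscle genes. The marked mitochondrial genes were Hspd1, Hspe1, Hspa9 and Dnajc19, and the unmarked ones Dnaja3, Dnajc11, Dnajc15 and Dnajc30. For none of these groups did the interval exclude the 61.1% of the whole set.

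In all, 28 chaperone genes had no promoter peak in either list. For 6 of them (Dnajb2, Hspa14, Hspa4l, Hspb11, Dnajc7 and Dnajc21) a peak lay within 1000 bp of the TSS, downstream of the promoter region. A further 8 (Hspa1a, Hspa1b, Hspa1l, Hsp90aa1, Dnaja3, Dnajb3, Dnajb7 and Dnajc22) had their nearest peak at up to 10000 bp. The remaining 14 (Hspb1, Hspb3, Hspb7, Hspb8, Dnaja4, Dnajb11, Dnajb13, Dnajc5b, Dnajc6, Dnajc11, Dnajc15, Dnajc18, Dnajc25 and Dnajc30) had none within that distance. Dnajc15 was the farthest from any proliferating peak, at 1056667 bp. A peak in the promoter region or the gene body was present in either list for 56 chaperone genes (77.8%, interval 66.4 to 86.7; all genes 55.6%).

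A window reaching 1000 bp to either side of the TSS gave 37 marked genes in proliferating cells (51.4%; all genes 26.9%), 36 in differentiating cells (all genes 31.1%) 45 in either (62.5%; all genes 36.4%) and 28 in both (38.9%; all genes 21.6%). Marked with it in the proliferating list alone were 9 genes (all genes 5.28%) and in the differentiating list alone 8 (all genes 9.54%). Of the genes marked in either list, 39 were marked with both windows. The genes Hspa12b, Hspb9, Dnajc4, Dnajc8 and Dnajc28 were marked with the promoter region alone, and Hspa4l, Hspa14, Hspb11, Dnajb2, Dnajc7 and Dnajc21 with the near window alone. With the near window both Hspd1 and Dnajb1 were marked in both lists.

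Values of the 27 genes marked in both lists did not shift in a common direction. The percentile of the strongest promoter peak was higher in the differentiating list for 14 genes and lower for 13, and the differences ran from −27.6 to 52.4 points. Peaks of 26 genes shared at least 1 base between the lists. The genes with a −log10 q of 5 or more in both were Hspa2, Hspa8, Hspa9, Dnajb12 and Dnajc14 (all genes 1.7%).

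A promoter peak could not always be assigned to the chaperone gene. Of 72 pairs of a chaperone gene and a promoter peak over both lists, 20 involved a peak that also covered the TSS of another protein-coding gene, and they concerned 13 chaperone genes. Examples are Dnajb4 with Fubp1, Dnajc17 with Zfyve19, Dnajc2 with Psmc2 and Hsp90b1 with Ttc41. For 40 of the 44 marked genes at least 1 peak had its nearest TSS at the chaperone gene itself, and for Dnajc16, Dnajc4, Dnajc8 and Hspb9 every promoter peak was nearer to another gene. In addition Dnajb14, Hsp90b1 and Dnajc14 in proliferating cells, and Dnajc2 and Dnajc12 in differentiating cells, were marked only by a peak nearer to another gene. With peaks nearest to the chaperone gene alone, 21 genes rather than 27 were marked in both lists (all genes 15.9%). A start on the opposite strand within 1000 bp was present for 12 of the 44 marked and 7 of the 28 unmarked genes.

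Genes that work with these chaperones were looked up in the same way, from a list of 51 co-chaperones, chaperonin subunits, prefoldins, ER folding factors, heat shock factors and related genes. In proliferating cells 21 were marked (41.2%; all genes 23.7%), in differentiating cells 25 (49.0%; all genes 27.7%), in either 30 (58.8%, interval 44.2 to 72.4; all genes 33.8%) and in both 16 (31.4%; all genes 17.6%). Among the genes marked in both lists were Ahsa1, Bag6, Canx, Cct2, Cct5, Cct7, Cct8, Pdia3, Pfdn2, Ptges3, Serpinh1, St13, Stip1 and Stub1. Stip1, which links HSP70 to HSP90, had a −log10 q of 1.93 in proliferating and 2.39 in differentiating cells with a fold enrichment of 3.27 in both. Hyou1, the ER member of the HSP110 class, was marked in proliferating cells alone (fold enrichment 3.68, −log10 q 2.33), and Hsf2, a heat shock factor, in differentiating cells alone (3.22 and 2.80). Hsf1, the main heat shock factor, Bag3 and the small heat shock protein gene Cryab were unmarked at the gene-level TSS. A proliferating peak lay 118 bp from the TSS of Hsf1, and another lay 118 bp from the TSS of Hsf2, both just outside the promoter region. So for Hsf2 both lists held a peak at or near the start. The gene-level TSS of Cryab lies inside the annotated Hspb2 gene. A differentiating peak lay 1111 bp downstream of that TSS, and it is the same peak that marked Hspb2.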

How the data were processed

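H3K27ac ChIP-seq was analysed in 1 library each of proliferating and differentiating Oli-neu cells. According to the methods and the submitters' processing notes, the authors aligned reads to GRCm38/mm10 with Bowtie2 (2.1.0), kept uniquely mapped reads, removed PCR duplicates with SAMtools, called broad peaks with MACS2 (2.0.10) and removed blacklisted regions with bedtools. An input library is not given in the sources used here. A deposited peak consists of its coordinates and 3 values without a header, taken in the order of the peak caller as fold enrichment, −log10 p and −log10 q. The weakest deposited q was 0.0995 in the proliferating and 0.0983 in the differentiating list, above the cutoff that the methods name. Percentiles are ranks of −log10 q within a list. The values of separate lists are not on a shared scale, so differences in them between the states are descriptions only.

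Peaks were compared with the genes of GENCODE M21 in Python 3.11.15 (scipy 1.17.1, pandas 2.3.3, numpy 2.4.6), and matplotlib 3.10.9 drew the plots. The gene-level TSS was used, and any shared base counted. Intervals are exact (Clopper-Pearson) at 95%. Sequences come from GRCm38.p6. The overlap code was tested on simulated data. The members and lists were chosen with earlier results of these data known, and the sequences and motifs shown were chosen after matches were seen. Genes named with values are those with a peak in both lists, the 5 strongest per list, the 3 strongest in 1 list alone and a fixed list of well-known chaperones, and others by name, with values added after they were seen. For 1 gene of the list of chaperone partners the result is not reported here. The alternatives were other promoter widths, peak thresholds and overlaps, equal numbers of peaks, the TSS of every transcript, and leaving out chromosomes 1, 10 and 15 or Hspa1a and Hspa1b.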

Additional observations from a re-analysis of the deposited data

How the results depend on the processing

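Over 11 alternatives, 129 of 154 counts stayed within 1.5 times the main count and 25 did not. With a −log10 q of at least 5 the marked genes fell to 6 in proliferating cells (all genes 3.27%) and 8 in differentiating cells (4.25%). Either list then marked 9 (5.81%) and both lists 5 (1.7%), with 1 in the proliferating and 3 in the differentiating list alone. For these single-list counts the share of all genes was not computed. By family these 9 were 3 Hspa, 0 Hsph, 0 Hsp90, 1 chaperonin (Hspd and Hspe), 0 Hspb, 1 Dnaja, 2 Dnajb and 2 Dnajc genes. With at least 0.5 of the peak inside the promoter region the counts were 22 in proliferating cells (all genes 13.9%), 21 in differentiating cells (15.6%) and 12 in both (7.65%). By family this setting gave 1 Dnaja, 3 Dnajb and 1 chaperonin gene in either list (all genes 21.9%). Among peaks whose fold enrichment reached the median of their list 23 genes were marked in proliferating cells (all genes 16.8%). Of these, 5 were in the proliferating list alone, for which the share of all genes was not computed. Either list marked 10 Dnajc genes at this setting (all genes 26.3%). Without chromosomes 1, 10 and 15 the Hsp90 family had 1 marked gene and the chaperonin family 0, since the others lie on those chromosomes. The TSS of every transcript gave 50 genes in either list (42.1%). An alternative chosen after seeing the data, which counted only peaks with no other protein-coding TSS nearer, gave 40 (32.2%).

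No paired analysis was possible because each state has 1 library and no test was run. For the same reason no library was left out. Depth per peak is unknown, and the absence of a peak is not the absence of acetylation.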
